A study of Mus musculus with 6 samples.

Results

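Runx1 binding was examined at 43 genes of the Wnt pathway: 19 Wnt ligands, 2 genes for ligand secretion (Porcn and Wls), 12 receptors (Fzd1 to Fzd10, Lrp5 and Lrp6), 5 nuclear effectors (Ctnnb1, Lef1, Tcf7, Tcf7l1 and Tcf7l2) and 5 inhibitors (Axin1, Axin2, Dkk1, Dkk2 and Dkk3). The genes were listed by name as parts of the pathway, with earlier results of these data known, and all 43 were found among 21883 protein-coding genes of the RefSeq gene table (build GRCm38.p6, the sequence of mm10). A peak belonged to a Wnt gene if it touched the annotated body or the flanking 10 kb upstream or downstream.

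Runx1 is a DNA-binding transcription factor, and chromatin immunoprecipitation with sequencing (ChIP-seq) maps the DNA it lies on. The cells were GFP+ lung fibroblasts of Col1a2-CreERT2;mTmG mice, in which Cre driven by the collagen gene Col1a2 switches cells from red to green fluorescence. CreERT2 is a form of Cre that acts only in the presence of tamoxifen. Lungs had received a sham injury or intratracheal bleomycin, a drug that brings on fibrosis, and bleomycin-treated cells were taken on day 14 (D14) or day 56 (D56). Each condition had 1 Runx1 ChIP library and 1 input library, so there is no replicate spread, no test between conditions and no p-value. The green label marks cells with past Col1a2-driven Cre activity and their descendants. The sources used here do not give the number, age or sex of the mice, or the day on which sham cells were taken.

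Wnt proteins are secreted, lipid-modified signals. They bind a Frizzled receptor together with Lrp5 or Lrp6, which stops a destruction complex built on Axin from breaking down β-catenin (Ctnnb1). β-catenin then acts in the nucleus with the DNA-binding factors Tcf7, Lef1, Tcf7l1 and Tcf7l2. Some ligands, such as Wnt5a, also signal without β-catenin. In the lung, Wnt ligands from fibroblasts maintain alveolar epithelial stem cells, and the pathway is active in fibrosis.

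The sequences under 5 D14 summits show what DNA lay at the centre of these peaks. They are printed 5′ to 3′ on the strand of the gene, from the RefSeq promoter table (GRCm38.p6), with 11 bases centred on the D14 summit in capitals. The stretches cover chr1:59482002-59482082 (+) for Fzd7, chr6:72789220-72789295 (-) for Tcf7l1, chr3:104961710-104961760 (-) for Wnt2b, chr5:135251239-135251297 (-) for Fzd9 and chr5:128600856-128600927 (+) for Fzd10. They were chosen after their values were seen, because each lies upstream of a start and outside annotated genes. The Fzd7 and Tcf7l1 regions were called in all 3 libraries, the Wnt2b region in sham and at D14, and the Fzd9 and Fzd10 regions at D14 alone.
Fzd7: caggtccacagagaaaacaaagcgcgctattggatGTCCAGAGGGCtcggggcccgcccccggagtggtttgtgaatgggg
Tcf7l1: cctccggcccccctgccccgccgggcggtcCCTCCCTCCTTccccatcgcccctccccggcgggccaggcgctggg
Wnt2b: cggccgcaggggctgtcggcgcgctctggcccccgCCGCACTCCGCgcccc
Fzd9: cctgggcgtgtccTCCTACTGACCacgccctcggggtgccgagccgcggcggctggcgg
Fzd10: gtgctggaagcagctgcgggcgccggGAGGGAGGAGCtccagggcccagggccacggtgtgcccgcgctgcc
G and C made up 61.7% of the Fzd7 stretch, 84.2% of Tcf7l1, 86.3% of Wnt2b, 78% of Fzd9 and 77.8% of Fzd10. None of the 5 stretches holds the RUNX core letters TGTGGT or TGCGGT on either strand, but the Wnt2b promoter holds them just after its start, beyond the printed stretch.

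RUNX core letters were found in promoters with and without a peak. Besides Wnt2b, whose promoter met a peak in sham and at D14, they were in a promoter of Wnt11 that met a D14 peak, 268 bp and 212 bp from its summit. They were also in the promoters of Dkk1 and Wnt10b, which met no peak of any library and are printed here as the cases without one. Dkk1 encodes a secreted blocker of Lrp5 and Lrp6, and Wnt10b is a ligand. The matches, in capitals, are on the opposite strand and lie at chr19:30549658-30549743 (-) and chr15:98778331-98778400 (-).
Dkk1: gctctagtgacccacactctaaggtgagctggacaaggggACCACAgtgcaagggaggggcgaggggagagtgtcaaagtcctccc
Wnt10b: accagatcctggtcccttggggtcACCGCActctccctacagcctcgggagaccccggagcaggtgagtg

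The sham list held 25052 peaks, the D14 list 56316 and the D56 list 15009. Sham ChIP and input had 48816721 and 39609538 tags, D14 had 78744701 and 49312043, and D56 had 49669125 and 19949187. D14 thus had the most tags and the longest list. Counts are therefore also given with each list limited to its 15009 strongest peaks by p-value, called equal list length here. Of 7 fibroblast marker genes, 6 had a peak in each library, the proteoglycan gene Lum being at 0 throughout, but at equal list length 5 (sham), 2 (D14) and 6 (D56) had one. Of 7 genes per list, endothelial markers had a peak at 3 (sham), 7 (D14) and 3 (D56) genes, epithelial markers at 1, 4 and 0, myeloid markers at 2, 5 and 2, and lymphocyte markers at 2, 3 and 2. At equal list length these became 3, 3 and 3 for endothelium, 1, 1 and 0 for epithelium, 1, 2 and 2 for myeloid cells and 2, 2 and 2 for lymphocytes. Markers of other cell types thus had most peaks at D14 with full lists, and their part in the results was not tested.

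Nearly all Wnt genes carried a Runx1 peak at D14, and most carried one in each library. A peak was present at 29 of 43 genes in sham (67.4%, 95% Wilson interval 52.5 to 79.5%), where 60.3% of all protein-coding genes had one. At D14 there were 41 of 43 genes (95.3%, 84.5 to 98.7%; all genes 73.3%). At D56 there were 27 of 43 genes (62.8%, 47.9 to 75.6%; all genes 53.7%). These intervals cover counting error only. With full lists the D14 interval of the Wnt genes lay above the background, while the sham and D56 intervals included theirs. The Wnt genes were longer than most, with a median body of 27.1 kb against 17.2 kb over all genes, and a longer body gives a peak more room. At equal list length the sham count was 24 (55.8%, 41.1 to 69.6%; all genes 52.5%), the D14 count 30 (69.8%, 54.9 to 81.4%; all genes 56.7%) and the D56 count 27 (62.8%; all genes 53.7%). All 3 intervals then included the background.

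The genes fell into 4 patterns across the lists. A peak was present in all 3 libraries at 27 of the 43 genes, against 53.2% of all protein-coding genes. At D14 alone it was present at 12 of the 43, against 12.6% of all protein-coding genes. Sham and D14 peaks without a D56 peak were found at Wnt1 and Wnt11 (6.95% of all genes). Wnt7a and Dkk1 had none in any library (26.6% of all genes). With full lists, no Wnt gene was in the sham list without the D14 list, or in the D56 list without the sham list. Such genes were rare over all genes too. Of 13195 genes with a sham peak, 11652 were in all 3 lists and 1521 in sham and D14 only. Of 11759 genes with a D56 peak, the same 11652 were in all 3 lists. With equal lists, 22 genes were in all 3 lists, and 3 genes, Wnt8a, Wnt16 and Fzd9, were in the D14 list alone. Wnt2, Wnt4, Wnt5a and Fzd3 were then at D14 and D56 only, Dkk3 in sham and at D56 only, and Wnt11 in sham and at D14 only. The other 12 genes had no peak. All-gene shares of these equal-length patterns were not computed.

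Peak numbers followed the same order. The 43 genes held 60 sham, 176 D14 and 38 D56 peaks, each counted once. The median gene had 2.39 peaks per 100 kb of gene body and flanks in sham, 7.56 at D14 and 1.49 at D56, against 1.58, 3.47 and 0.783 over all protein-coding genes. More peaks at D14 than in sham were counted at 39 of the 43 genes, where 51.4% of all genes had more, and fewer at 0 genes. Fzd2 and Ctnnb1 had equal numbers. With lists cut to 15009 peaks the Wnt genes held 34 sham, 41 D14 and 38 D56 peaks. Of the 43 genes, 10 then had more at D14 than in sham while 4 had fewer. The matching shares of all genes were not computed for cut lists, so these 2 counts have no background beside them.

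**Figure D1:**
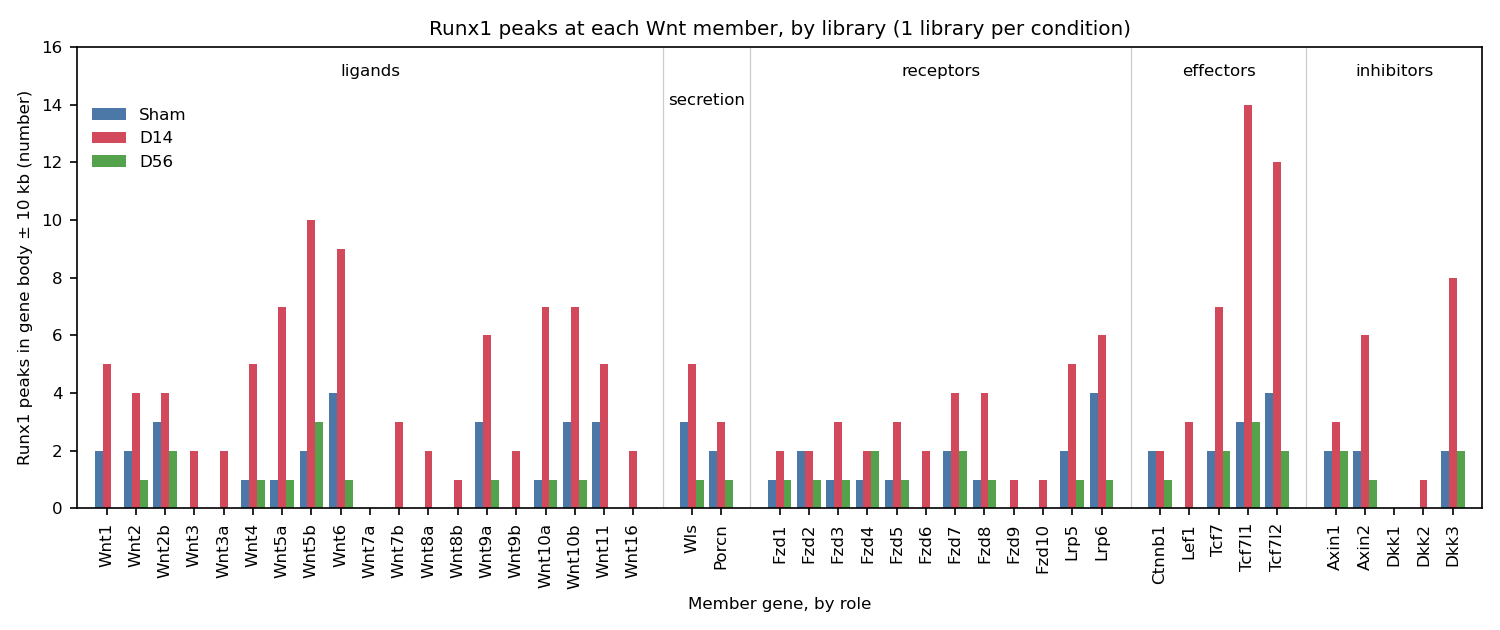
Number of Runx1 peaks in the gene body or within 10 kb, for each of the 43 Wnt genes, ordered by role (1 library per condition). D14 has 176 peaks in all, sham 60 and D56 38, and Wnt7a and Dkk1 have 0 in each library.

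Among the ligands, 11 of 19 genes had a sham peak (57.9%), 18 a D14 peak (94.7%) and 9 a D56 peak (47.4%). Of all protein-coding genes, 60.3%, 73.3% and 53.7% had one. Wnt7a was the exception at D14. The ligands held 23, 77 and 12 peaks. With equal lists, 7 ligands had a peak in sham, 12 at D14 and 9 at D56.

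Wnt9a had the highest fold enrichment among the ligands. Fold enrichment is the authors' ratio of the pileup at the summit to the local background; it ranks peaks within a list and is not on a common scale across libraries. At the start of Wnt9a (chromosome 11, 59306440 to 59307394 at D14) the fold was 8.60 in sham, 18.7 at D14 and 10.6 at D56. Wnt6, a ligand of epithelial development, had folds of 8.04, 15.5 and 9.70 at a summit 1412 bp after an annotated start, inside the gene (chromosome 1, 74773058 to 74773530). Wnt10a, its neighbour, had folds of 4.69, 14.7 and 5.17 at a peak on chromosome 1, 74807796 to 74808536. The windows of these neighbours share peaks, 4 of them at D14, as do those of Wnt1 and Wnt10b. Both sham peaks of Wnt1 lay in the part that it shares with Wnt10b.

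Wnt2, Wnt4, Wnt5a, Wnt5b and Wnt2b, ligands with known roles in lung development, were in all 3 lists and are named here after their values were seen. Wnt5a, which directs cell movement and polarity, had 1 peak in sham, 7 at D14 and 1 at D56. Its peak with the highest fold lay at the same place in each library, with folds of 3.26, 11 and 6.39. Wnt5b had 2, 10 and 3 peaks, and Wnt6 4, 9 and 1. The Wnt4 peak with the highest fold, within 1 kb of a gene end in each library, had folds of 4.49, 12.1 and 5.15. Wnt2, active in lung mesenchyme, had 5.43, 11.4 and 5.37 within 1 kb of a gene end. Wnt5b had 5.67 in sham and 9.87 at D14 at a site well inside its span, while its highest D56 fold, 5.64, lay elsewhere in the gene. Wnt2b likewise had its highest D14 fold, 13.3, at its start, and its highest sham and D56 folds, 7.34 and 4.07, further in. At Wnt2b and Wnt5b the site with the highest fold thus differed between lists.

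Wnt10b, Wnt1 and Wnt11 complete the ligands with a sham peak, and Wnt10b too is named after its values were seen. Wnt10b, known for its role in bone and fat cell fate, had folds of 4.61, 11.5 and 5.67 at a site nearer to the neighbouring gene Arf3. Wnt11, a ligand of cell movement, had 6.52 in sham and 13.5 at D14 within 1 kb of a gene end, and no D56 peak. Wnt1, the founding member of the family, had 3.36 in sham and 6.21 at D14, at different sites, and no D56 peak. Neither Wnt1 nor Wnt11 had a fold at D14 among the 3 highest of the ligands.

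At D14 alone a peak was present at Wnt3, Wnt3a, Wnt7b, Wnt8a, Wnt8b, Wnt9b and Wnt16. Wnt3, Wnt3a and Wnt8a are ligands that act through β-catenin in the early embryo. Their highest D14 folds were 4.42 (Wnt3), 5.34 (Wnt3a) and 8.81 (Wnt8a). Wnt7b, made by lung epithelium during development, had 6.23. The folds were 4.74 at Wnt8b, 3.92 at Wnt9b and 9.53 at Wnt16. Each of the 7 values was below the median of 10.4 for the highest D14 fold over the 18 ligands with a peak. None of these 7 highest-fold summits was within 1 kb of an end of its gene.

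Both genes for ligand secretion had a peak in their window in every library, but the D56 peak of Porcn lay at its neighbour. Porcn encodes the enzyme that attaches the lipid to Wnt proteins, and Wls carries them to the surface. The Porcn peak with the highest fold had values of 9.03 in sham, 20.5 at D14 and 7.95 at D56 (chromosome X, 8192735 to 8193164 at D14), and it lies inside the neighbouring sterol enzyme gene Ebp. At D56 it was the only Porcn peak, so with the gene body only, or with each peak given to its nearest gene, 1 of the 2 genes had a D56 peak. At the other end of Porcn, peaks had folds of 7.23 in sham and 12.0 at D14. The Wls peak lay 45841 bp inside the gene at D14 (chromosome 3, 159885251 to 159885676 at D14), with folds of 4.68, 12.8 and 8.77.

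The Frizzled genes had their highest-fold peaks close to a gene end, and the highest D14 fold of any Wnt gene was at Fzd5. At D14 a peak was present at all 12 receptor genes, and in sham and at D56 at 9 of them. Cut to equal length, the lists gave 8 (sham), 10 (D14) and 9 (D56) genes. The full-list shares were thus 75%, 100% and 75%, against 60.3%, 73.3% and 53.7% of all genes. At equal length they were 66.7%, 83.3% and 75%, against 52.5%, 56.7% and 53.7%. Receptor genes held 15, 35 and 11 peaks. With the gene body only, 6 of the 12 had a D56 peak, and with each peak given to its nearest gene 7 did. At D14 the peak with the highest fold lay within 1 kb of a gene end at all 10 Frizzled genes, at 25 to 760 bp, where 55.1% of all genes with a D14 peak had theirs so placed. In sham and at D56 the same held for all 7 Frizzled genes with a peak (all genes 56.8% and 60.9%). The bodies of 8 of the 10 Frizzled genes were short, from 2.11 kb (Fzd9) to 7.19 kb (Fzd5), while Fzd6 spanned 32.0 kb and Fzd3 70.0 kb. At Lrp5 and Lrp6, the co-receptors, the D14 peak with the highest fold lay 8975 bp and 4488 bp from the gene end, and the Lrp5 peak falls on the neighbouring gene Ppp6r3. The Lrp5 folds were 6.88, 11.7 and 10.5 at that site. The highest Lrp6 folds were 5.53, 11.3 and 7.20, at a different site in each library. Its D56 site lay 6791 bp outside the gene, nearest to Bcl2l14. At D56 Lrp5 and Lrp6 had no peak other than these at their neighbours.

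The Fzd5 fold was the highest of all 176 D14 peaks at Wnt genes, followed by that of the inhibitor gene Axin1 (32.7), inside its gene. The Fzd5 folds at its gene end (chromosome 1, 64737214 to 64738191 at D14) were 15.6 in sham, 38.4 at D14 and 12.2 at D56, with pileups of 92, 173 and 42 fragments. Ranked by p-value within its own list, with rank 1 the strongest, the peak was number 632 in sham, 470 at D14 and 1572 at D56, out of 25052, 56316 and 15009. These ranks describe each list and show no change between libraries.

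Fzd1 (chromosome 5, 4757400 to 4758625 at D14) had folds of 6.92, 26.6 and 11.3. Fzd3 (chromosome 14, 65261930 to 65262802) had 4.56, 25 and 9.19. Fzd3 is known from axon guidance and planar cell polarity. Both genes had their D14 summit within 110 bp of a gene end.

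Fzd2, Fzd4, Fzd7 and Fzd8 were also in all 3 lists and are named after their values were seen. Fzd7, a receptor of stem cells, had folds of 6.19, 19.6 and 17.7 at its start, the region printed above. Fzd4, which also binds the non-Wnt ligand norrin in blood vessels, had 12.5, 20.2 and 17.7, at a summit that also lies within the annotated body of Tmem135. Fzd8 had 4.81, 23.3 and 12.1, and Fzd2 7.07, 11.2 and 8.73. At D56 Fzd4 and Fzd7 had the highest folds of the 27 Wnt genes with a peak, and Fzd5 stood below both.

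Fzd6, Fzd9 and Fzd10 had a peak at D14 alone. Their D14 folds were 5.07, 16.7 and 8.61, with pileups of 29, 88 and 37 fragments. Fzd9 (chromosome 5, 135250957 to 135251421) was the only gene of the 12 bound at D14 alone whose fold was above 10, and it is also among the 3 D14-only genes at equal list length. Fzd6 is known for hair and tissue polarity. The summits lay 106 bp (Fzd6), 232 bp (Fzd9) and 219 bp (Fzd10) from the gene end.

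**Figure D2:**
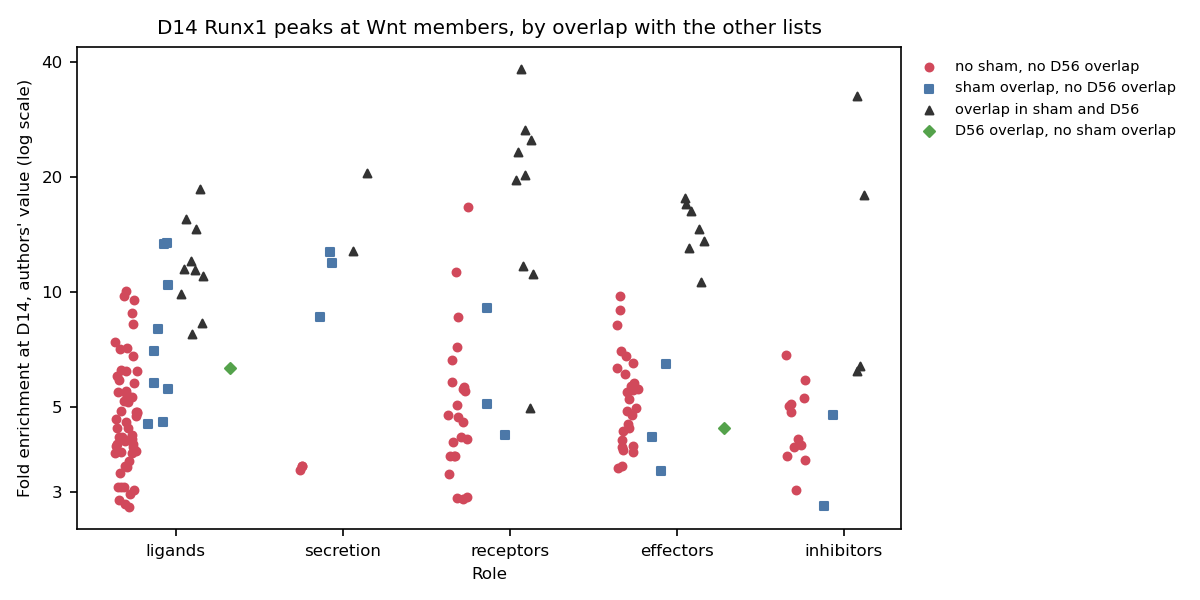
Fold enrichment of every D14 peak at the 43 Wnt genes (log axis), by role, with colour and shape showing whether a sham or D56 peak overlaps it. Of the 34 peaks at fold 10 or more, 3 have no sham overlap, and the highest value is 38.4 at Fzd5.

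Among the nuclear effectors, 4 of 5 genes had a sham peak, 5 a D14 peak and 4 a D56 peak. Lef1 was the exception. They held 11, 38 and 8 peaks. Equal lists gave 4, 4 and 4 genes (80% each), against 52.5%, 56.7% and 53.7% of all genes. With full lists the shares were 80%, 100% and 80%, against 60.3%, 73.3% and 53.7%. With 5 genes the intervals of these shares are wide.

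Ctnnb1, β-catenin itself, had its highest folds at its start, with values of 7.16 in sham, 17.1 at D14 and 9.52 at D56 (chromosome 9, 120933158 to 120934124 at D14). Tcf7l1, mainly a repressor of Wnt targets, had its highest fold at a peak 9532 bp from its end, at the edge of the neighbouring gene Tgoln1 (chromosome 6, 72616573 to 72617063), with 8.90, 17.6 and 11.5. At its own start, printed above, the folds were 4.91, 14.6 and 9.34. Tcf7l1 had 14 peaks at D14 over a body of 162.7 kb, or 7.66 per 100 kb of window, close to the median Wnt gene.

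Tcf7 had its highest D14 fold at a start (chromosome 11, 52282485 to 52283713), with values of 4.35, 16.4 and 7.83. Tcf7l2, named after its values were seen, had 5.19, 13.0 and 11.1 at its start, and 12 peaks at D14. Lef1 had a peak at D14 alone, at a fold of 5.53 and a pileup of 23 fragments (chromosome 3, 131105931 to 131106282). Of the DNA-binding partners of β-catenin, Lef1 was thus the one with no call in sham or at D56.

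None of the sham or D56 summits at the inhibitor genes lay within 1 kb of an end of the gene, though those of Axin2 lay at an annotated start inside it. Of all peaks, 39% in sham and 54.1% at D56 lay within 1 kb of an end of any protein-coding gene. A sham peak was present at 3 of 5 genes, a D14 peak at 4 and a D56 peak at 3, with 6, 18 and 5 peaks. Equal lists gave 3, 2 and 3 genes (60%, 40% and 60%), against 52.5%, 56.7% and 53.7% of all genes. With full lists the shares were 60%, 80% and 60%, against 60.3%, 73.3% and 53.7%. With 5 genes the intervals of these shares are wide.

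Axin1, the scaffold of the destruction complex, had folds of 10.1 in sham, 32.7 at D14 and 5.02 at D56 at a peak inside the gene (chromosome 17, 26138232 to 26139321 at D14), with pileups of 90, 157 and 24 fragments. By p-value it was number 1618 in the sham list, 986 in the D14 list and 9250 in the D56 list. Axin2, a scaffold that is itself a classic target of Wnt signalling, had folds of 12.4, 18 and 9.19 (chromosome 11, 108920146 to 108920892). Its summits lay 41 bp (sham), 11 bp (D14) and 10 bp (D56) after an annotated start inside the gene. Within each list, the Axin1 peak thus had the lower fold of the pair in sham and at D56 and the higher at D14.

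Dkk3, a Dickkopf family member found in fibroblasts, had 2 sham, 8 D14 and 2 D56 peaks. Its region called in all 3 libraries (chromosome 7, 112138236 to 112139197 at D14) had folds of 6.95, 6.41 and 5.95, and the highest D14 fold in its window, 6.85, lay elsewhere. Dkk2, a blocker of Lrp5 and Lrp6, had a peak at D14 alone, 68 bp from a gene end, with a fold of 4.14 and a pileup of 17 fragments (chromosome 3, 132085248 to 132085429). Dkk1 had no peak in any library.

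**Figure D3:**
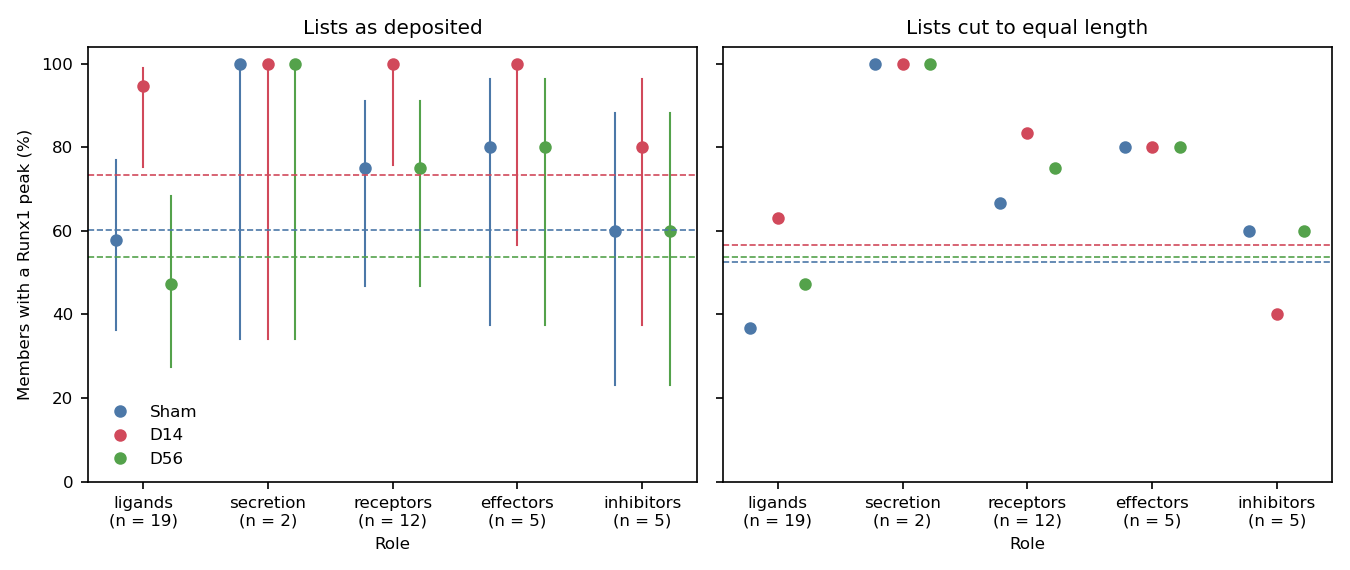
Percent of genes with a Runx1 peak by role and library, with full lists in the left panel (bars, 95% Wilson intervals) and lists of equal length in the right panel; dashed lines give all protein-coding genes. D14 is highest in each role with full lists except secretion, where both genes have a peak in every library, and at equal length ligands have 7, 12 and 9 genes of 19.

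Most D14 peaks at Wnt genes had no counterpart in the sham list. Of 176 D14 peaks, 124 met no sham peak (70.5%, 63.3 to 76.7%), against 58.9% of all D14 peaks. No D56 peak was met by 142 of 176 (80.7%, 74.2 to 85.8%), against 74.4%. Peaks at neighbouring sites of 1 gene are not independent, and the intervals take no account of that. Joined across libraries, the peaks made 181 regions, of which 122 were called at D14 alone, 32 in all 3 libraries, 20 in sham and D14, 5 in sham alone, and 2 at D14 and D56. The same patterns over the whole lists were not computed, so these region counts have no background beside them.

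D14 peaks without a sham counterpart were weaker than those with one. Their median D14 fold was 4.72, against 11.5 (all D14 peaks 4.75 and 9.50). Below a fold of 5, 72 of 80 lacked a sham peak (90%; all D14 peaks 83.4%). From 5 to 10, 49 of 62 did so (79.0%, 67.4 to 87.3%; all D14 peaks 60.6%). At 10 or more, 3 of 34 did so (8.82%; all D14 peaks 9.92%). A D56 peak was lacking at 78 of 80 (97.5%; all 96.8%), 56 of 62 (90.3%; all 81.5%) and 8 of 34 (23.5%; all 19.5%) in the same classes. The shares at Wnt genes thus exceeded those of the whole list most in the middle class, and the sham share lay near it among the strongest peaks. At equal list length 13 of 41 D14 peaks lacked a sham counterpart (31.7%; all 25.2%) and 14 of 41 a D56 counterpart (34.1%; all 23.1%).

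At fold 10 or more, the 3 D14 peaks that met no sham peak were at Fzd9 (fold 16.7), Lrp6 (11.3) and Wnt4 (10.1). They are named after their values were seen. At Wnt4 and Lrp6 another peak in the window was called in sham. Over all D14 peaks, 58.9% met no sham peak. By role the counts were 58 of 77 at ligands (75.3%, 64.6 to 83.6%) and 23 of 35 at receptors (65.7%, 49.2 to 79.2%). Effectors had 28 of 38 (73.7%, 58.0 to 85.0%), inhibitors 12 of 18 (66.7%, 43.7 to 83.7%) and secretion genes 3 of 8 (37.5%, 13.7 to 69.4%). All these intervals but that of the ligands included the share of all D14 peaks, and no difference between roles was tested.

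Few D14 regions that the sham list lacks were called at D56. Among the 124 D14 peaks that met no sham peak, 2 met a D56 peak (1.61%; all D14 peaks 1.45%), at Wnt5b and Tcf7l1. Of the 52 with a sham overlap, 32 met one (61.5%; all 60.2%). Every one of the 38 D56 peaks at Wnt genes met a D14 peak, but the matching share of all D56 peaks was not computed. In the other direction, 5 of 60 sham peaks met no D14 peak (8.33%; all sham peaks 8.31%), at Wnt2, Wnt6, Fzd2, Lrp6 and Tcf7l2. Where a whole-list share is given beside it, the share at Wnt genes lies near it.

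Positions could be read against a start and strand for the 30 Wnt genes in the promoter table. A summit lay within 1 kb of a start at 15 of them in sham (50%; all genes 47.5%), 24 at D14 (80%; 58.0%) and 12 at D56 (40%; 42.2%). The 9 genes with such a summit at D14 and not in sham were Dkk2, Fzd9, Fzd10, Lef1, Wnt1, Wnt10b, Wnt16, Wnt2 and Wnt5b. The nearest protein-coding gene to the peak was itself a Wnt gene for 50 of 60 sham peaks, 160 of 176 D14 peaks and 29 of 38 D56 peaks. A peak counted at a Wnt gene can therefore lie closer to another gene, as at Lrp5, Porcn and Tcf7l1.

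**Figure D4:**
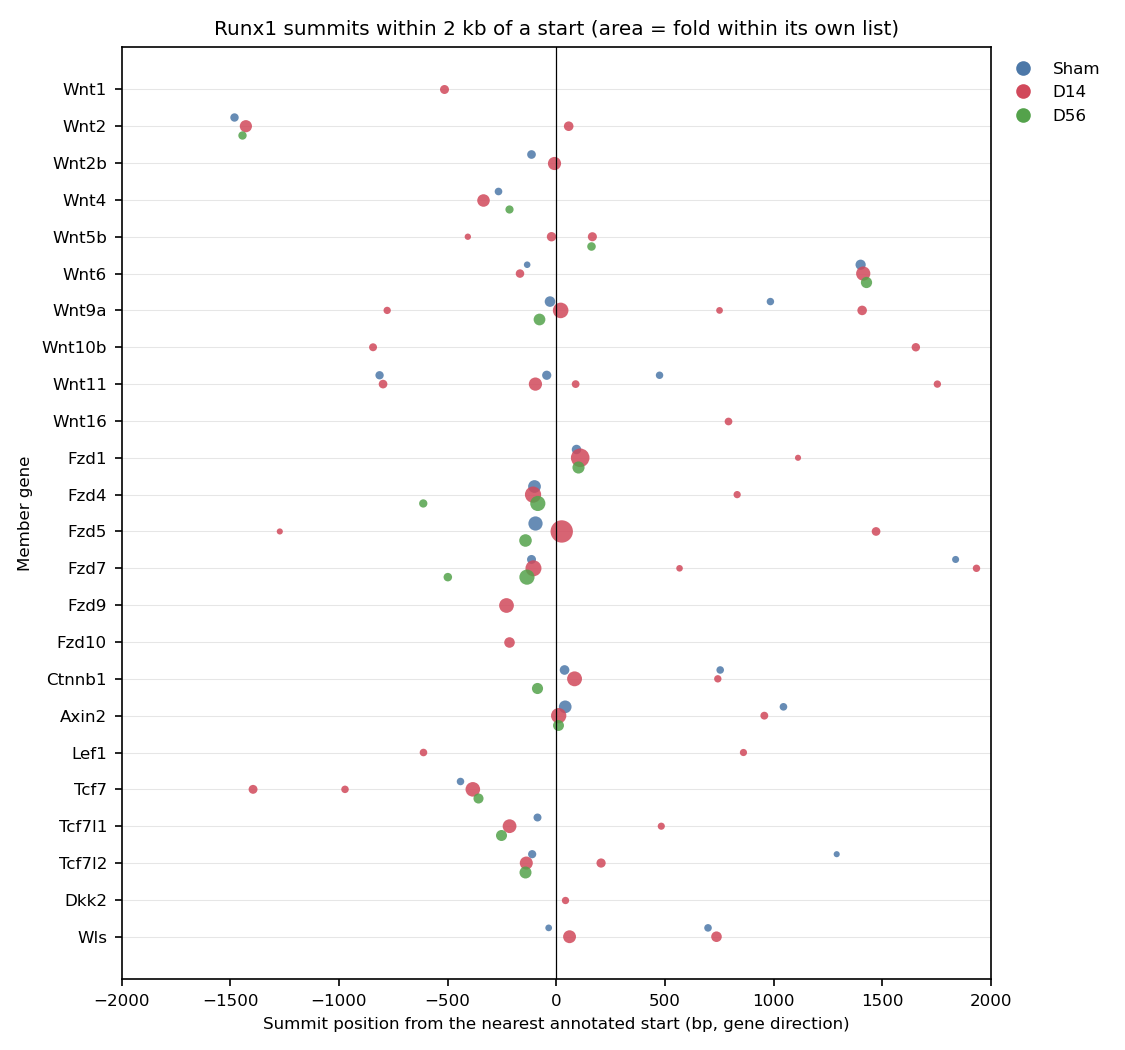
Distance of each summit from the nearest annotated start of its Wnt gene (bp, negative upstream), coloured by library, with point area showing fold within its own list. The 3 libraries lie close together at genes such as Fzd7 and Axin2, while Fzd9, Fzd10 and Dkk2 have a D14 point alone.

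RUNX core letters were in a smaller share of Wnt promoters than of all promoters, with an interval that includes the latter. The search covered 300 bp from 250 bp before to 50 bp after each start, for TGTGGT or TGCGGT on either strand, in 39 promoters of the 30 genes. They were present in 4 of 39 (10.3%, 4.06 to 23.6%), against 21.6% of all promoters in the table. Among the Wnt promoters that met a D14 peak the count was 2 of 25 (8%, 2.22 to 25%), against 20.4% of all promoters that met one and 22.9% of those that did not. The median GC content was 70% in Wnt promoters and 56.3% in all. The part of base composition in these shares was not tested.

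TCF/LEF core letters, CTTTGAT or CTTTGTT on either strand, were in 6 of 39 Wnt promoters (15.4%, 7.25 to 29.7%; all promoters 8.06%). They were in 2 of the 25 that met a D14 peak (8%; all 5.36%). Of the 14 that met none, 4 held them (28.6%, 11.7 to 54.6%; all 11.1%). One of the 2 promoters with both the letters and a D14 peak is that of Fzd7. There the match AACAAAG, on the opposite strand, lies 124 bp before the start. The summits lay 13 bp from it in sham, 22 bp at D14 and 8 bp at D56. A match is only a description of the letters.

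Other genes of the Wnt pathway, 74 in 6 lists, showed the same order of counts. A peak was present at 56 of 74 in sham (75.7%), 70 at D14 (94.6%) and 48 at D56 (64.9%), against 60.3%, 73.3% and 53.7% of all genes. Equal lists gave 50, 56 and 48 of the 74, where 52.5%, 56.7% and 53.7% of all genes had a peak. As shares of the 74, these counts each lay above the all-gene share. Cytoplasmic relay genes had a peak at 15, 16 and 16 of 16, led at D14 by the kinase Gsk3b (fold 33.2), the feedback inhibitor Nkd1 (29.1) and the ubiquitin ligase subunit Btrc (28.5). Genes of receptor turnover had 9, 10 and 8 of 10, led by the R-spondin receptor Lgr4 (37.4), the ligase Znrf3 (32.9), which removes Frizzled from the surface, and Ptk7 (27.4). Nuclear cofactors had 10, 11 and 10 of 11, led by the co-repressor Tle1 (48.6), the β-catenin inhibitor Ctnnbip1 (39.5) and Chd8 (34.1).

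Secreted and surface modulators had a peak at 6 of 17 in sham (35.3%), 13 at D14 (76.5%) and 5 at D56 (29.4%). With full lists this is near the all-gene share at D14 and below it in the other lists. The modulators were led by the Dickkopf receptors Kremen2 (23.9) and Kremen1 (18.7) and by Notum (13.5), the enzyme that removes the Wnt lipid. Planar polarity genes had 9, 10 and 5 of 10 (90%, 100% and 50%), led by Daam1 (17.6), Celsr3 (15.8) and Vangl1 (14.9). Reported Wnt target genes had 7, 10 and 4 of 10 (70%, 100% and 40%), led by Tnfrsf19 (14.5), Jag1 (13.7) and Fgf18 (13.4). Equal lists gave 5, 7 and 5 of 17 modulators and 7, 7 and 5 of 10 planar polarity genes. Target genes then had 5, 9 and 4 of 10, against 52.5%, 56.7% and 53.7% of all genes. Relay genes had 15, 16 and 16 of 16, turnover genes 8, 7 and 8 of 10, and nuclear cofactors 10, 10 and 10 of 11. With 10 to 17 genes a list, the intervals are wide, and no difference between these lists was tested.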

How the data were processed

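Runx1 ChIP and input libraries of 3 conditions were used, 1 of each per condition. Per the submitters' processing notes, reads were processed with BWA, SAMtools and MACS2 on mm10. Per the file headers, the authors ran MACS 2.0.10.20120913 separately for each ChIP and input pair, at a q-value cutoff of 0.01, and scaled the deeper member of a pair down to the shallower. The deposited lists give a pileup (the ChIP fragment signal at the summit), −log10 p- and q-values, and fold enrichment (a ratio of pileup to local background). Scaling to unequal inputs makes D56 the shallowest, and the longest list, D14, has the most tags.

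Peaks on the main chromosomes were kept, which left out 7 sham and 15 D14 peaks. Overlap meant 1 bp or more. Shares have 95% Wilson intervals (Python 3.11.15, pandas 2.3.3, statsmodels 0.14.6). The gene table holds no exons, so exons, introns and UTRs were not told apart. Promoters came from the RefSeq table (30 of the 43 genes matched); not matched were Wnt5a, Wnt7b, Wnt8a, Wnt10a, Fzd2, Fzd3, Fzd6, Fzd8, Lrp5, Lrp6, Axin1, Dkk3 and Porcn. Peak sequences outside these promoters were not analysed here. Named genes are the 3 with the highest fold per role, those with peaks at D14 alone, and up to 3 per pathway list by D14 fold. Members and lists were chosen with earlier results of these data known. Alternatives covered the gene window, gene assignment, peak threshold, overlap rule, peak joining, list length, and thinning of pileups to the D56 scaled depth. On simulated data, 28179 of 28179 planted overlaps and 200 of 200 planted genes were found.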

Additional observations from a re-analysis of the deposited data

How the results depend on the processing

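Of 161 values recomputed under alternatives, 132 kept within 1 counting interval (shares) or 1.5 times (peak numbers) of the reported value, and 29 moved. With 50 kb on either side of the gene, the share of Wnt genes with a peak was 90.7% in sham and 86.0% at D56. By role it was then 89.5% in sham, 100% at D14 and 89.5% at D56 for ligands, 91.7% in sham for receptors, and 100% in sham and at D56 for effectors. The genes then held 117 (sham), 304 (D14) and 79 (D56) peaks. With the gene body only, 44.2% of the genes had a D56 peak, ligands had 31.6% in sham and 26.3% at D56, and D56 peaks numbered 25. With folds of 5 or more, 48.8% of the genes and 31.6% of the ligands had a sham peak, peaks numbered 27 in sham and 96 at D14, and 69.8% of D14 peaks lacked a D56 overlap. With lists of equal length, 69.8% of the genes and 63.2% of the ligands had a D14 peak, peaks numbered 34 in sham and 41 at D14, and 31.7% of D14 peaks lacked a sham and 34.1% a D56 overlap. A reciprocal overlap of 50% gave 77.8% and 89.8%. Giving each peak to the nearest gene put D14 peaks at 100% of the inhibitors. Thinned to the D56 scaled depth, 29 genes had a peak in sham, 39 at D14 and 27 at D56, with 51, 123 and 38 peaks.

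With 1 library per condition there is no replicate spread to set a difference against. Most of the D14 excess in peak number was gone at equal list length, but that cut makes the totals of the 3 lists equal by design. After thinning, the Wnt genes held 51 sham, 123 D14 and 38 D56 peaks, and the whole lists held 21200, 43168 and 15009. The D14 list was thus the longest after thinning over all genes too. Thinning only removes peaks. A peak counted at a Wnt gene is not shown to act on it. No paired analysis was possible because each condition has 1 ChIP library.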
